A study of Mus musculus with 4 samples.

Results

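The 10 genes described here encode the MHC class II antigen-presentation system of the mouse. They were chosen by symbol, by a rule that uses no measured value, though earlier results of these data were known at the choice. They are H2-Aa, H2-Ab1, H2-Eb1, H2-DMa, H2-DMb1, H2-DMb2, H2-Oa, H2-Ob, Cd74 and Ciita, of 23259 gene symbols in the series. The vector table lists all 10, and the DSS table lists 7. The 3 others, H2-Eb1, H2-DMb1 and Ciita, have no row in the DSS table, whose rows each hold a value above 1 FPKM in at least 1 library. FPKM is the number of sequenced fragments scaled by transcript length and by library size, so levels can be compared between genes.

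RNA was sequenced from 4 bulk samples of mouse T cells in 2 experiments, with 1 library per group. One experiment set regulatory T cells (Treg) from the spleen of untreated Balb/c mice against those of mice that drank 3% dextran sulfate sodium (DSS), a polymer that injures the colon lining, for 7 days. Both groups carried a reporter that places human CD2 under Foxp3, and the cells were purified by human CD2. The other set naive CD4 T cells from C57BL6 mice (genotype: wild type) that received a mock vector against cells that received the transcription factor Sox12 by vector. Ages, pooling of animals, culture conditions and any sorting of transduced cells were not given in the labels. With 1 library per group no difference has a replicate check and none was tested, so both values are given for each gene.

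MHC class II molecules display peptides from the endosomal pathway to CD4 T cells. Each classical molecule pairs an alpha and a beta chain, I-A from H2-Aa and H2-Ab1 and I-E from H2-Ea and H2-Eb1. The invariant chain, encoded by Cd74, escorts new molecules to the endosome and blocks their groove. The H2-DM dimer then removes its last fragment and loads peptide, and the H2-O dimer restrains H2-DM. B cells, dendritic cells and macrophages can express class II molecules under the coactivator Ciita, whereas mouse T cells are known to make little class II of their own. C57BL6 mice lack surface I-E because their H2-Ea gene is defective.

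Ciita binds no DNA itself and acts through factors assembled on the X and Y boxes shared by class II promoters. The promoter windows of 7 of the 10 genes were at hand from RefSeq (build GRCm38.p6, not the authors' mm9), each 300 bases long around an annotated start. No window was at hand for H2-Ab1, Cd74 or Ciita. The Y box was searched as TGATTGG, which contains the inverted CCAAT motif, and a core of the X box as AGCAAC, both on either strand. The stretches below run 5′ to 3′ along each gene, with these letters in capitals. Only the 6 genes with a Y box match are shown, each cut around that match, so their likeness there is by selection.
H2-Aa (chr17:34287857-34287923, minus strand): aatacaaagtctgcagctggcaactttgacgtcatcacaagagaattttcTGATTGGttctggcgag
H2-Eb1 (chr17:34305756-34305822, plus strand): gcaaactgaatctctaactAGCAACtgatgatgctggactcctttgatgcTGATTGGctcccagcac
H2-DMb1 (chr17:34153078-34153144, plus strand): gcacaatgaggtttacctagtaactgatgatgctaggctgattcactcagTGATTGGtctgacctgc
H2-DMb2 (chr17:34145107-34145173, plus strand): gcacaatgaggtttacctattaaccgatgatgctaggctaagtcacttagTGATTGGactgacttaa
H2-Oa (chr17:34092284-34092350, plus strand): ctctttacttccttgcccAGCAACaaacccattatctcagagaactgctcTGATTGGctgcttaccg
H2-Ob (chr17:34238796-34238862, plus strand): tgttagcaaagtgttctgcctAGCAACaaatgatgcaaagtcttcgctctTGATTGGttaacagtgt

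The Y box letters stood in the windows of 6 of 7 class II genes, always on the gene's own strand. Their first base lay 45 bases before the start in H2-Oa and 92 bases before it in H2-DMb2, with the 4 others in between. Of 32851 promoter windows of the same length, 7.82% held these letters. The X core letters stood in 3 of the 7 genes (H2-Eb1, H2-Oa and H2-Ob) against 14.8% of all windows. In these 3 genes 23 to 26 bases separated them from the Y box. Both motifs in this order with a gap of 10 to 40 bases were found in 35 windows, or 0.107%, which belong to 30 genes and include H2-Eb2, a further class II gene. The 2 windows of H2-DMa held neither run of letters. A match is a run of letters and does not show that a factor binds there. The stretches of H2-DMb1 and H2-DMb2 differed at 9 of 67 bases.

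**Figure D1:**
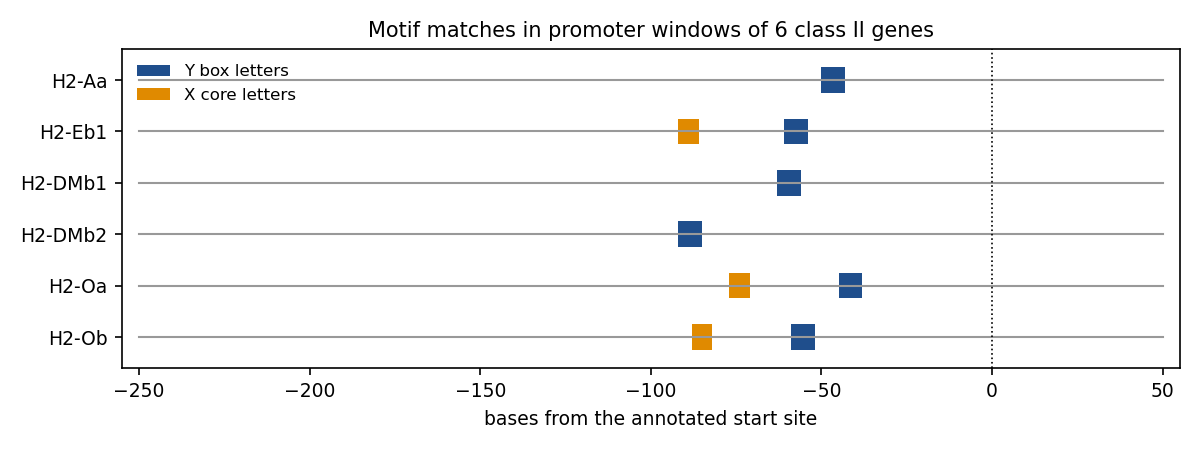
Positions of the Y box letters (blue) and X core letters (orange) in the promoter windows of 6 class II genes, in bases from the annotated start site (dotted line). All 6 carry the Y box between 92 and 45 bases before the start, and H2-Eb1, H2-Oa and H2-Ob also carry the X core letters upstream of it.

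T cell genes were abundant in all libraries, as labelled. The 8 T cell markers, among them Cd3e, Cd4 and Lck, summed to 2130 and 2103 FPKM in untreated and DSS Treg, and to 1468 and 1239 FPKM with the mock and Sox12 vectors. With the Sox12 vector 6 of these 8 were lower and 2 higher, where 51.1% of all genes with a mean of 1 FPKM or more were lower. Cd5 had 189 and 81.7 FPKM with the mock and Sox12 vectors, and Cd247 had 90.6 and 129 FPKM. Foxp3, the lineage factor of Treg, had 88.2 and 84.9 FPKM in the Treg libraries, and 20.9 and 127 FPKM with the mock and Sox12 vectors. Sox12 stood at 1.56 and 829 FPKM with the mock and Sox12 vectors. One FPKM in the vector libraries rested on about 42.6 (mock) and 45.1 (Sox12) fragments per kilobase of transcript, by the step size of the lowest values. The depth of the DSS libraries is unknown.

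Class II transcripts were present at low to moderate levels in all 4 libraries, and Cd74 was the highest of the set in each. Cd74 had 30.2 FPKM in untreated Treg, 22.6 in DSS Treg, 37.7 with the mock vector and 27.5 with the Sox12 vector. Even so, 2286 genes of the DSS table stood above it in untreated Treg. The listed class II genes summed to 88.4 and 77.6 FPKM in untreated and DSS Treg (7 genes), and to 102 and 57.3 FPKM with the mock and Sox12 vectors (10 genes). Cd74 alone made up 34.2%, 29.2%, 36.9% and 48.0% of these sums.

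The order of the other genes differed between the experiments. In untreated Treg, Cd74 was followed by H2-DMa (21.8 FPKM), H2-Ob (20.9 FPKM), H2-Oa (7.54 FPKM), H2-Ab1 (4.43 FPKM), H2-Aa (2.54 FPKM) and H2-DMb2 (0.929 FPKM). In mock vector cells it was followed by H2-DMa (25.6 FPKM), H2-Ab1 (21.6 FPKM), H2-DMb2 (5.32 FPKM), H2-Oa (5.07 FPKM), H2-Eb1 (2.72 FPKM), H2-Aa (1.93 FPKM) and H2-DMb1 (1.70 FPKM). H2-Ob (0.360 FPKM) and Ciita (0.0798 FPKM) came last. H2-Ob, the beta chain of H2-O, was thus among the 3 highest of the set in Treg and among the 2 lowest in the transduced cells. The 2 tables were made separately and differ at least in strain, cell type and the use of a vector. These, and any difference in culture or cell state, cannot be told apart as sources of such a contrast. Both strains were set against mm9, a C57BL/6 genome, and how reads of the polymorphic Balb/c genes fared there was not tested. Neighbours such as H2-DMa and H2-Ob in Treg, or H2-DMb2 and H2-Oa in mock vector cells, lay close together, and with 1 library their order has no measured spread.

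**Figure D2:**
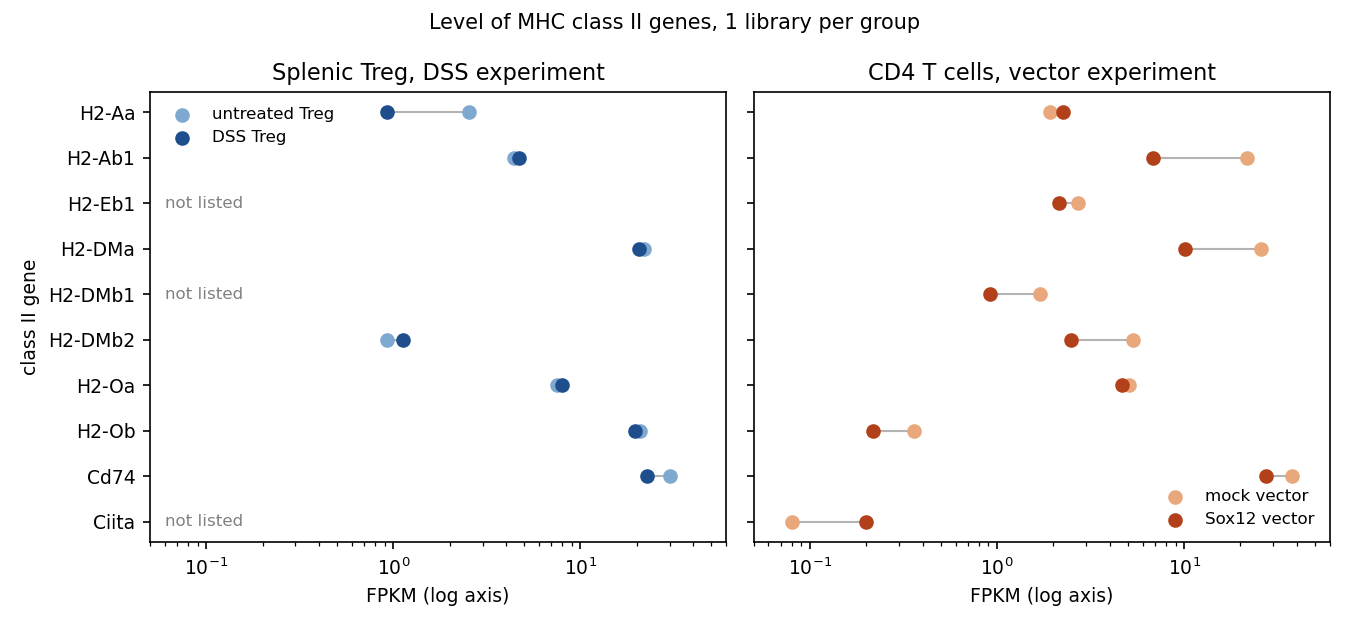
FPKM of the 10 class II genes on a log axis, 1 point per library, with the libraries of an experiment joined by a line. In the DSS experiment (left) H2-Aa is far lower in DSS Treg (0.922 against 2.54 FPKM) while most genes coincide. In the vector experiment (right) H2-Ab1 and H2-DMa are lower with the Sox12 vector, and H2-Aa and Ciita are higher.

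The chains of 1 dimer were not measured in equal amounts. The level of H2-Ab1 was 1.74 times that of H2-Aa in untreated Treg, 5.09 times in DSS Treg, 11.2 times with the mock vector and 3.02 times with the Sox12 vector. H2-DMa exceeded H2-DMb2 by 23.5 and 18.4 times in untreated and DSS Treg and by 4.82 and 4.06 times with the mock and Sox12 vectors. The H2-O chains were the other way round in the experiments, with H2-Oa at 0.361 and 0.409 times H2-Ob in Treg and at 14.1 and 21.4 times H2-Ob in the transduced cells. In mice the DM beta chain has a duplicated gene. The longest coding transcripts of H2-DMb1 and H2-DMb2 in GENCODE were identical at 94.1% of 1219 aligned bases, with runs of up to 221 identical bases, so the split of fragments between them is uncertain. The classical and nonclassical beta chains are far less alike, with 60.8% identity between H2-Ab1 and H2-Ob.

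The comparison of DSS with untreated Treg asks how splenic Treg differ after DSS. Class II genes differed little apart from H2-Aa and Cd74, which were both lower in DSS Treg. H2-Aa had 2.54 and 0.922 FPKM in untreated and DSS Treg, a ratio of 0.363. Cd74 had 30.2 and 22.6 FPKM, a ratio of 0.749. The 5 others had ratios between 0.937 and 1.21. Changes are given from here as log2(FPKM + 1) of the treated less that of the control library, which understates low genes.

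Of the 7 listed genes, all of which had a mean of 1 FPKM or more and so passed the filter, 4 were lower and 3 higher in DSS Treg, and 0 differed by 2 times on the log2(FPKM + 1) scale. Over all 10545 genes past the filter, 33.9% were lower, while 0.0759% passed 2 times downward and 0.19% upward, and 66.1% were higher. With the median change of all genes set to 0, 50% of all genes were lower, and still 4 of the 7. The median change of the 7 genes was -0.08, and that of all genes was 0.05. H2-Aa, among the lower genes, and H2-DMb2, among the higher, each had 1 library below 1 FPKM. Both are listed only through the library in which they are higher, so their directions partly reflect the listing rule.

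H2-Aa, the I-A alpha chain, had a change of -0.88, which ranked 13 of 10545 counted from the most lowered gene. H2-Aa is listed only through its untreated value, so this rank partly reflects the listing rule and is no support for a difference. With a pseudocount of 0.1 in place of 1 its change was -1.37, past the 2-fold mark. Its partner H2-Ab1 had 4.43 and 4.69 FPKM, a change of 0.07 in the other direction. The libraries thus differed for 1 chain of I-A and hardly for the other. H2-Aa is a low gene here, since 9308 genes of the table stood above it in untreated Treg, and the number of fragments behind it is unknown.

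Cd74, the invariant chain, had a change of -0.40, which ranked 123 from the most lowered gene, so 1.16% of genes had a lower change. The nonclassical chains were nearly level. H2-DMa had 21.8 and 20.6 FPKM in untreated and DSS Treg (change -0.08). H2-Ob had 20.9 and 19.6 FPKM (change -0.09), and its partner H2-Oa had 7.54 and 8.02 FPKM (change 0.08). H2-DMb2 had 0.929 and 1.12 FPKM (change 0.14), close to the level at which a gene is listed at all. These 4 changes lay between the 5th and 95th percentiles of all genes, which were -0.20 and 0.31.

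The comparison of vectors asks how CD4 T cells differ when given Sox12. With the Sox12 vector the I-A beta chain and all 3 H2-DM genes were lower, Cd74 was moderately lower, and H2-Aa, H2-Eb1 and H2-Oa differed little. H2-Ab1 had 21.6 and 6.79 FPKM with the mock and Sox12 vectors, a ratio of 0.314. H2-DMa had 25.6 and 10.1 FPKM, a ratio of 0.394. Ciita itself was near the bottom of both libraries and not lower with the Sox12 vector, at 0.0798 and 0.199 FPKM.

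Of the 10 genes 8 passed the filter, of which 7 were lower with the Sox12 vector and 1, H2-Aa, was higher. Of all 10822 genes past the filter 51.1% were lower and 48.9% higher. H2-Ab1 and H2-DMa passed 2 times downward on that log2 scale, as did 1.91% of all genes, and 0 class II genes past the filter did so upward, against 4.85% of all genes. The median change of the 8 genes was -0.47 and that of all genes -0.01.

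H2-Ab1 had a change of -1.54 and ranked 66 of 10822 from the most lowered gene. About 818 and 272 fragments lay behind its values with the mock and Sox12 vectors, and the 95% interval of its ratio from counting error alone ran from 0.274 to 0.361. This and the intervals below cover neither preparation nor animals. Its partner H2-Aa had 1.93 and 2.24 FPKM (change 0.15), on about 80 and 99 fragments, with a counting interval of the ratio from 0.867 to 1.56. The interval of H2-Aa includes 1 and does not overlap that of H2-Ab1. H2-Eb1, the I-E beta chain, had 2.72 and 2.16 FPKM (change -0.24, counting interval of the ratio 0.633 to 0.994). The I-E alpha gene, as H2-Ea-ps, was listed at 0 in both libraries, and the related H2-Eb2 had 0.0409 and 0.143 FPKM.

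The H2-DM genes, whose product loads peptide, were lower together. H2-DMa had a change of -1.26 and ranked 110 from the most lowered gene, on about 1812 and 755 fragments, with a counting interval of the ratio from 0.362 to 0.429. H2-DMb2 had 5.32 and 2.48 FPKM, a change of -0.86 and a ratio of 0.467 (0.386 to 0.564). Its copy H2-DMb1 had 1.70 and 0.918 FPKM, a change of -0.50 and a ratio of 0.539 (0.390 to 0.743). The counting intervals of the 2 copies overlap, and the interval of H2-DMb2 overlaps that of H2-DMa.

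The H2-O genes, which restrain H2-DM, were low. H2-Oa had 5.07 and 4.67 FPKM with the mock and Sox12 vectors, a change of -0.10 and a ratio of 0.921 (0.768 to 1.11). H2-Ob had 0.360 and 0.218 FPKM, below the filter, on about 29 and 18 fragments, and the counting interval of its ratio (0.337 to 1.08) includes 1. The ratio of H2-DMa to H2-Oa was 5.06 with the mock and 2.16 with the Sox12 vector, and in Treg 2.90 and 2.57.

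Cd74 had 37.7 and 27.5 FPKM, a change of -0.44 and a ratio of 0.730 (0.685 to 0.778). Of all genes 11.2% had a lower change in that comparison. Its ratio was close in size to the 0.749 in the DSS experiment, where 1.16% of genes had a lower change. Ciita, the coactivator, rested on about 14 and 37 fragments, a ratio of 2.49 with a counting interval from 1.34 to 4.62. On the log2(FPKM + 1) scale its change was 0.15.

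**Figure D3:**
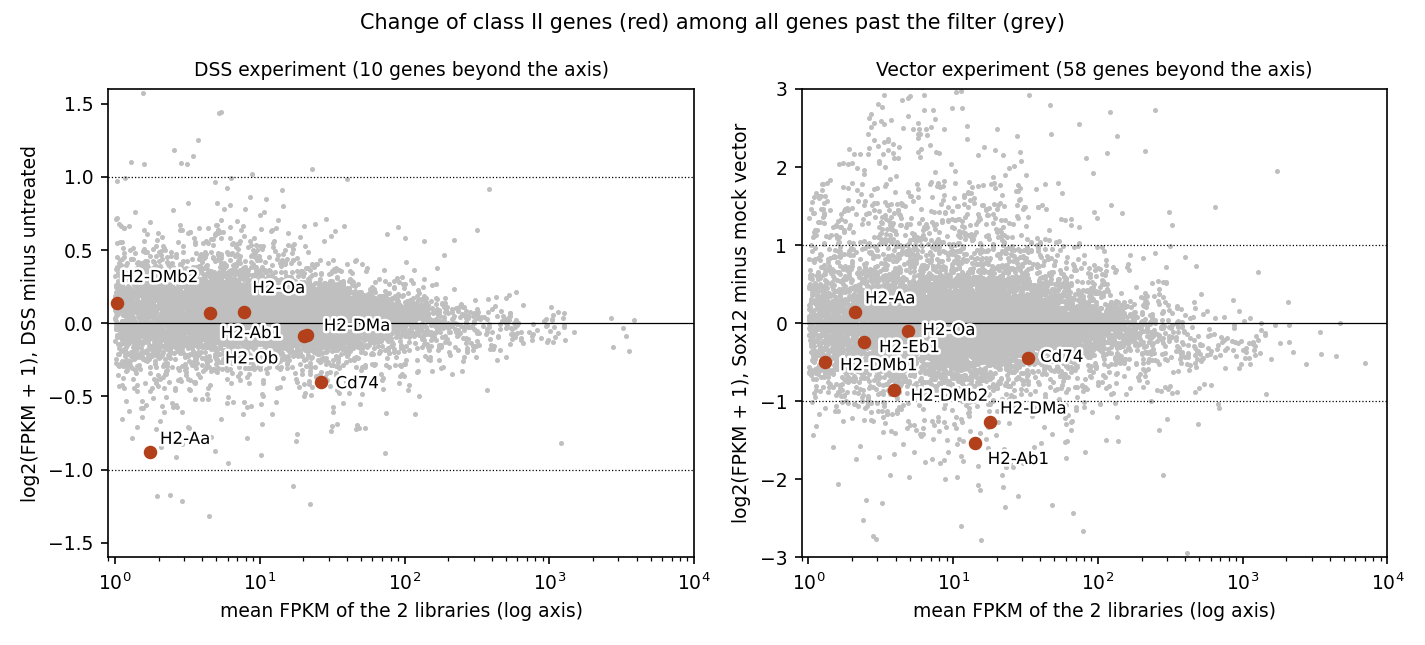
Change of each class II gene past the filter (red) and of all other genes (grey) against mean FPKM on a log axis, with dotted lines at 2 times on the log2(FPKM + 1) scale. Among Treg H2-Aa (-0.88) and Cd74 (-0.40) stand below the cloud near 0, and in the vector experiment H2-Ab1 (-1.54) and H2-DMa (-1.26) lie beyond the lower dotted line.

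The other genes of the pathway were followed as lists. The factors that bind the X and Y boxes (Rfx5, Rfxank, Rfxap, the 3 NF-Y subunits and Creb1) were all present, and 0 of 7 differed by 2 times in either experiment. After DSS 3 were lower and 4 higher (median 0.02), where 66.1% of all genes were higher. With the Sox12 vector likewise 3 were lower and 4 higher (median 0.23), where 48.9% of all genes were higher. Nfya had 26.0 and 24.0 FPKM in untreated and DSS Treg, and 21.5 and 32.3 FPKM with the mock and Sox12 vectors. Nfyb had 27.4 and 26.1 FPKM with the mock and Sox12 vectors, and Nfyc 24.9 and 25.8 FPKM in untreated and DSS Treg.

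Interferon-gamma induces Ciita through its receptor, the Jak kinases and Irf1. In the vector experiment 5 of 8 genes of this route were higher with the Sox12 vector and 3 lower (median 0.40). Of all genes 48.9% were higher, so this count is near that share. The 2 past 2 times were both higher, where 4.85% of all genes passed 2 times upward and 1.91% downward. Ifng, which encodes interferon-gamma, had 41.3 and 191 FPKM (change 2.18), and Irf1 had 15.7 and 46.0 FPKM (change 1.49). Jak1, with a change of -0.05, was nearly level. H2-Ab1 and the H2-DM genes were thus lower in the library in which Ifng and Irf1 were higher. After DSS 4 of the 8 were lower and 4 higher (median -0.0036), where 66.1% of all genes were higher. Jak1 had 164 and 173 FPKM in untreated and DSS Treg, and Irf1 had 105 and 85.2 FPKM (change -0.29). Of the repressors of Ciita, Prdm1 had 1.02 and 2.95 FPKM with the mock and Sox12 vectors (change 0.97) and Socs1 had 52.7 and 48.2 FPKM. In Treg, Prdm1 had 5.20 and 6.16 FPKM and Socs1 28.4 and 26.0 FPKM.

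Proteases and a reductase of the endosome prepare antigen and degrade the invariant chain. With the Sox12 vector 5 of the 7 such genes past the filter were lower and 2 higher (median -0.54), where 51.1% of all genes were lower. Ctss, the cathepsin that makes the last cuts of the invariant chain in B cells and dendritic cells, had 91.9 and 37.7 FPKM (change -1.26). Ctsl, which takes this part in the thymic epithelium, had 1.42 and 6.01 FPKM (change 1.53), so the pair differed in opposite directions. The other higher gene, Ctsd, had 71.8 and 143 FPKM with the mock and Sox12 vectors (change 0.98). Among DSS Treg 1 of 7 was lower and 6 were higher (median 0.03), where 66.1% of all genes were higher. The lower one was again Ctss, at 112 and 86.9 FPKM (change -0.36), and the most abundant, Ctsd, had 126 and 142 FPKM.

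Genes on the receiving side were followed too. Cd4, the coreceptor that binds class II, had 247 and 243 FPKM in untreated and DSS Treg and 261 and 185 FPKM with the mock and Sox12 vectors (change -0.49). Lag3, an inhibitory receptor for class II, had 11.5 and 12.4 FPKM, and 17.5 and 31.1 FPKM (change 0.80). Cd83, which stabilises class II at the surface, had 23.2 and 21.9 FPKM, and 44.6 and 38.0 FPKM.

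Class I genes were compared as the other arm of presentation. In DSS Treg 9 of 9 were lower (median -0.20), where 33.9% of all genes were lower and the median of all genes was 0.05. They include the coactivator Nlrc5, the class I counterpart of Ciita, at 59.6 and 42.4 FPKM (change -0.48). B2m had 2895 and 2581 FPKM in untreated and DSS Treg (change -0.17), and H2-D1 had 1124 and 1053 FPKM (change -0.09). In the vector experiment 6 were lower and 3 higher (median -0.25), where 51.1% of all genes were lower and the median of all genes was -0.01. The higher ones were Nlrc5 at 19.6 and 35.3 FPKM (change 0.82), H2-K1 at 511 and 557 FPKM and H2-D1 at 423 and 445 FPKM. Of the lower ones, B2m had 2087 and 2058 FPKM (change -0.02), and Psmb9 had the lowest change (-0.52). In neither experiment did a class I gene differ by 2 times. Of all genes 0.0759% did so downward and 0.19% upward in DSS Treg, and 1.91% and 4.85% with the Sox12 vector. Whether class I and class II differ in their changes was not tested.

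**Figure D4:**
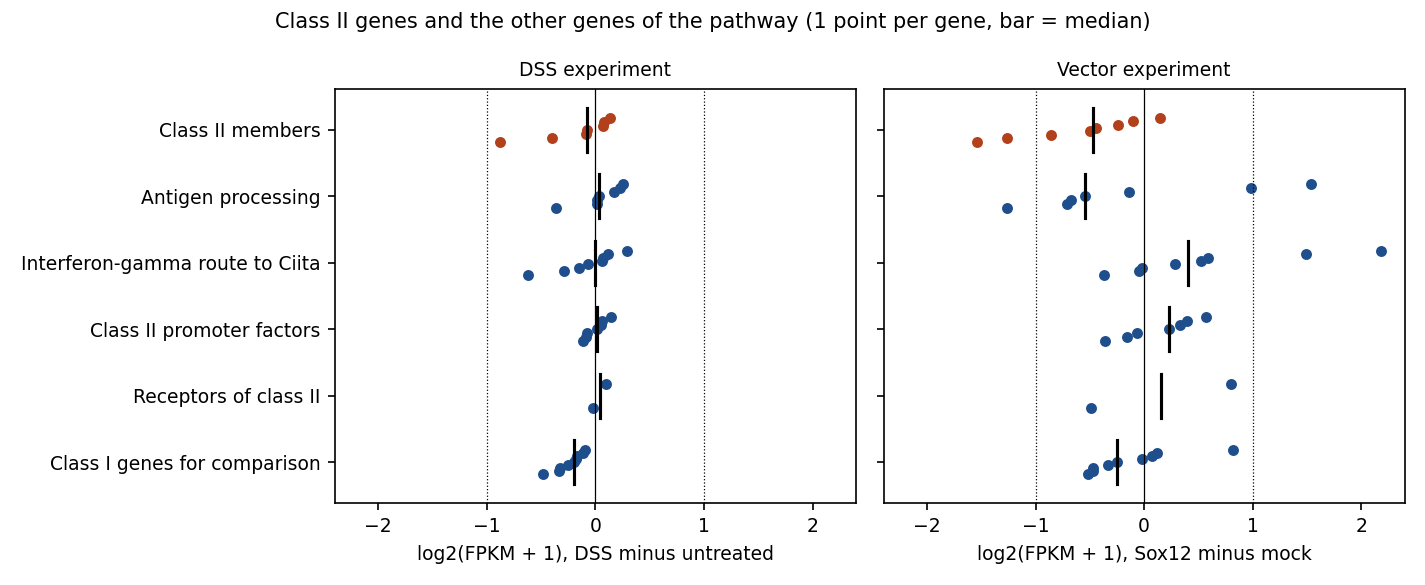
Change of class II genes (red) and of 5 further lists (blue), 1 point per gene past the filter, with the list median as a black bar and dotted lines at 2 times on the log2(FPKM + 1) scale. With the Sox12 vector the medians of class II (-0.47) and antigen processing genes (-0.54) lie below 0, and that of the interferon-gamma route (0.40) lies above it.

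Other cells that express class II could have been in the samples, and in bulk RNA fewer cells of a type and less RNA per cell cannot be told apart. In the vector libraries B cell markers and most macrophage markers were low. The 12 listed B cell markers summed to 4.80 and 4.44 FPKM with the mock and Sox12 vectors, against 64.4 and 29.8 FPKM for class II without Cd74. Ms4a1 had 0.0818 and 0.178 FPKM. The highest B cell marker with the mock vector was Ebf1, at 1.81 FPKM there and 0.749 FPKM in the other library (change -0.69). The other B cell marker past the filter, Cd79b, had 1.48 and 1.43 FPKM.

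Of 13 listed monocyte and macrophage markers 6 were at 0 in both vector libraries, among them Csf1r and C1qa, and the list summed to 3.44 and 3.95 FPKM, mostly Cd68. Of 10 dendritic cell markers Clec9a, Siglech and Cd209a were at 0 in both. That list summed to 34.9 and 40.3 FPKM, nearly all from Batf3 (22.5 and 28.9 FPKM), Ly75 (8.30 and 7.37 FPKM) and Zbtb46 (3.10 and 3.25 FPKM), of which activated T cells also express Batf3. The 5 listed plasma cell markers summed to 244 and 130 FPKM. Of the 3 past the filter 2 were lower with the Sox12 vector and 1 higher (median -0.83), where 51.1% of all genes were lower. The lower ones, which activated T cells also express, were Irf4 at 96.7 and 45.3 FPKM (change -1.08) and Xbp1 at 145 and 81.2 FPKM (change -0.83). Igj, the joining chain of antibodies, had 0.274 and 0.337 FPKM. The part of other cells in the lower H2-Ab1 and H2-DM genes was not tested.

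In the DSS libraries some markers of other cells were measurable. Of 14 B cell markers 3 were listed, Cd79b at 5.48 and 5.23 FPKM in untreated and DSS Treg, Cd79a at 3.19 and 3.92 FPKM and Fcrla at 1.35 and 1.01 FPKM, and they summed to 10.01 and 10.2 FPKM. The 4 listed monocyte and macrophage markers summed to 20.5 and 19.5 FPKM, with Lyz2 at 8.30 and 6.36 FPKM and C1qb at 2.80 and 2.64 FPKM. The plasma cell list summed to 358 and 305 FPKM, mostly Igj at 277 and 231 FPKM, which was above every listed class II gene. In DSS Treg 5 of 5 listed plasma cell markers were lower, where 33.9% of all genes were lower. Of dendritic cell markers Ly75 (11.5 and 9.74 FPKM) and Zbtb46 (0.823 and 1.03 FPKM) were listed. The part of such cells in the lower H2-Aa and Cd74 of DSS Treg was not tested.

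**Figure D5:**
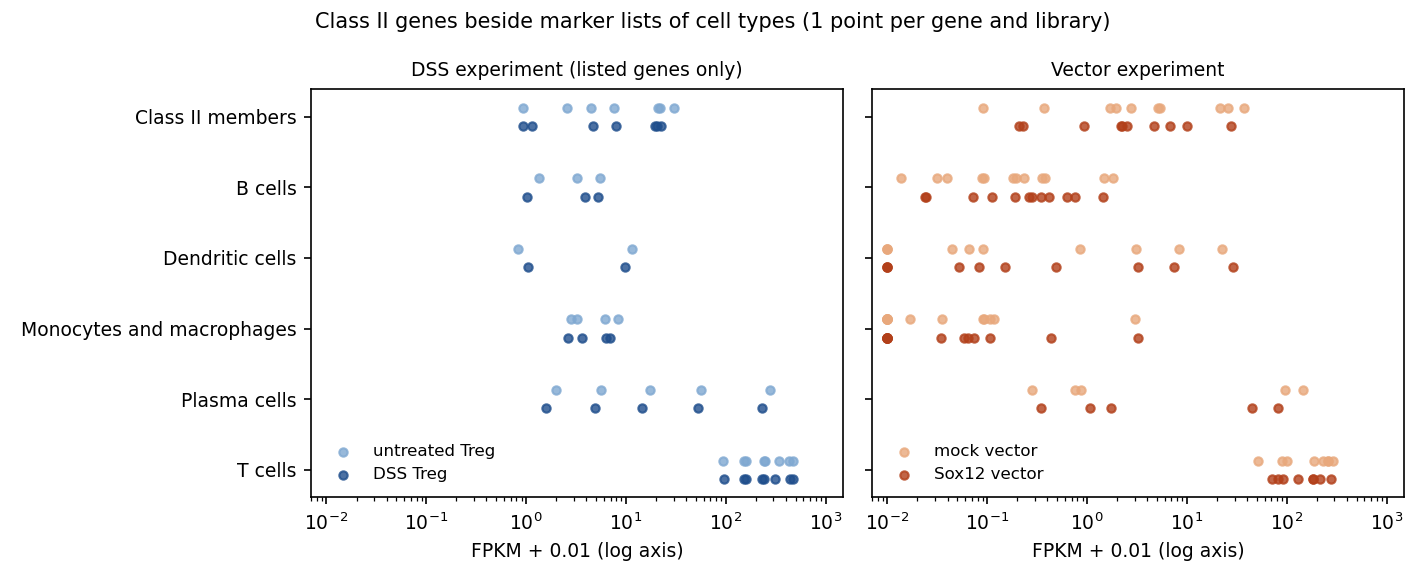
Level of each listed class II gene and cell type marker on a log axis, as FPKM + 0.01, by library. With the vectors (right) B cell and macrophage markers lie mostly below 1 FPKM while several class II genes lie above it. In the DSS experiment (left) listed B cell and macrophage markers reach the range of H2-Aa and H2-Ab1. The plasma cell marker Igj lies above every class II gene there.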

How the data were processed

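RNA of 4 mouse T cell samples was sequenced in 2 experiments, and columns of the tables were assigned to samples by name and title. Per the submitters' processing notes the authors used Cufflinks and mm9. Aligner, annotation and versions were not named there. The deposited DSS table holds linear FPKM and a fold ratio, and the deposited vector table holds log2(FPKM + 1) and a log2 difference. The log2 values were turned back to FPKM. FPKM keeps no counts, so no count model was used.

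The class II genes and all lists were chosen with earlier results of these data known. Rows whose names had become dates were left out (16 and 25), so genes of the March family were not used. A gene passed the filter at a mean of at least 1 FPKM, and past 2 times means a difference of at least 1 on the log2(FPKM + 1) scale. No test was run, as each group has 1 library. Named were all class II genes and, from each pathway list, the members past 2 times or else the 2 with the highest mean. Other genes were named after their values were seen, and a few list members are not reported here.

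Depth in the vector table came from genes with a single GENCODE vM21 transcript over 0.8 kb and below 0.1 FPKM, whose FPKM times length gives steps of 1 fragment. It rests on 41 and 45 genes. Fragments of a gene used the median length of its coding transcripts, so they are approximate. Intervals of ratios are 95% and use a normal approximation of counting error on the log scale.

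Promoters were taken from RefSeq by symbol, and transcripts were aligned with Biopython 1.88. The counting of changed genes was tested on simulated data. Alternatives were pseudocounts of 0.1 and 5, no filter, a filter of 5 FPKM, and 3 scalings. Python 3.11.15 with pandas 2.3.3 was used.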

Additional observations from a re-analysis of the deposited data

How the results depend on the processing

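No call of direction for a class II gene reversed under the 5 settings that recompute single genes, namely pseudocounts of 0.1 and 5, the median change set to 0, the 75th percentiles made equal and equal totals without the 20 highest genes. In the DSS experiment 1 gene, H2-Aa, passed 2 times with a pseudocount of 0.1 against 0 with a pseudocount of 1, and the median class II change was -0.13 with the median of all genes set to 0. In the vector experiment the median class II change was -0.29 with a pseudocount of 5. A filter at 5 FPKM left 3 genes, all 3 lower, with a median of -1.26. Beyond the fewer genes counted there, the cause was not tested. The other 37 recomputed counts and medians lay within 1.5 times of the reported values. Of single genes 23 recomputed changes moved by more than that, mostly low genes under another pseudocount and DSS changes near 0 under another scaling. No paired analysis was possible because each group has 1 library. With 1 library per group no replicate could be left out, and the spread between animals or cultures is unknown. Counting error limits H2-Ob and Ciita in the vector libraries.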

Other observations

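The class II genes share their chromosomal region with genes of the class I pathway, and in the order of RefSeq the stretch from H2-Oa to H2-Ea holds 15 genes, of which 8 are class II genes described above. The 7 others include the proteasome subunits Psmb9 and Psmb8 and the peptide transporters Tap1 and Tap2, which stand between H2-DMb1 and H2-Ob. With the Sox12 vector the 5 others past the filter had changes from -0.52 to 0.10 on the log2(FPKM + 1) scale, and the 7 class II genes past it had changes from -1.54 to 0.15. Psmb9 had 84.5 and 58.6 FPKM (change -0.52), Tap1 78.9 and 62.6 FPKM (change -0.33), Psmb8 289 and 209 FPKM (change -0.47) and Tap2 74.9 and 53.6 FPKM (change -0.48). Brd2, a chromatin reader between H2-Oa and H2-DMa, had 84.8 and 91.1 FPKM (change 0.10). H2-Ab1 (change -1.54) stands next to H2-Aa (change 0.15).

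In DSS Treg the 4 genes between H2-DMb1 and H2-Ob were all lower, where 33.9% of all genes were lower. These 4 are among the 9 class I genes counted above, so they are no separate observation. Psmb9 had 135 and 107 FPKM in untreated and DSS Treg (change -0.33), Tap1 133 and 112 FPKM (change -0.25), Psmb8 216 and 188 FPKM (change -0.20) and Tap2 113 and 99.7 FPKM (change -0.18). The nearest listed class II genes on either side, H2-DMb2 (change 0.14) and H2-Ob (change -0.09), had changes nearer to 0. Brd2 had 91.6 and 105 FPKM (change 0.19).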
